A study of Mus musculus with 12 samples.

Results

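The genes described here are the protein-coding members of cytochrome P450 families 1 to 4, followed across the ileal and colonic mucosa of mice that lack the metal transporter Slc39a8 in the intestinal epithelium and of their controls. They were chosen by symbol alone (Cyp, a family digit from 1 to 4, and a subfamily letter) after the Ensembl identifiers of the deposited expected-count table had been matched to GENCODE M21, and no measured value decided which genes of these families were included. This gave 81 members of 53715 genes, with 3 members in family 1, 49 in family 2, 9 in family 3 and 20 in family 4. A further 30 rows with such symbols were left out because the annotation does not call them protein-coding, and 23 of these were at 0 in every library.

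P450 enzymes are heme proteins, most of them held in the membrane of the endoplasmic reticulum, that insert an oxygen atom into a substrate with electrons passed on by the reductase Por. Families 1 to 3 are best known for the oxidation of drugs, dietary chemicals and steroids, and many of their genes respond to ligand-activated receptors such as Ahr, Nr1i2 (the pregnane X receptor) and Nr1i3 (the constitutive androstane receptor). Members of family 4 and several of family 2 oxidize fatty acids, including arachidonic acid and leukotrienes, and the gut epithelium carries both kinds as a first metabolic barrier to what is eaten.

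The 12 RNA-seq libraries came from 8-week-old male C57BL/6J mice, with 3 libraries for each of control ileum, KO ileum, control colon and KO colon. KO mice were labelled Slc39a8-fl/fl:Villin-Cre, and the label of the controls was Slc39a8-fl/fl, so that both carried the floxed allele; the methods of the study describe its controls more widely, as floxed, wild-type and Villin-Cre mice. Villin-Cre acts in intestinal epithelial cells while RNA was taken from whole mucosa with oligo-dT priming, each library came from 1 mouse, and no label ties an ileal library to a colonic one of the same mouse. In such bulk RNA, fewer cells of a type and less RNA per cell cannot be told apart.

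Library totals ran from 16749138 to 27903083 counts. Slc39a8 itself was lower in the KO mice of both tissues, with 6.73 ± 1.59 against 3.26 ± 0.954 CPM in ileum and 20.5 ± 0.393 against 8.93 ± 2.25 CPM in colon (mean ± SD, n = 3 each, control first). No library of the groups overlapped in either tissue, and over both the log2 fold change was −1.13 ± 0.17 (SE; edgeR adjusted p = 0.382, exact two-sided permutation p = 0.005, the smallest possible here). CPM, the unit of level used throughout, are counts relative to a library size of 1e+06 after scaling by trimmed mean of M values (TMM). The summed level of 9 epithelial markers was 19396 to 24147 CPM in ileum and 9868 to 11103 CPM in colon.

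Before the results, 3 ileal libraries need to be named. Control ileum 3 and KO ileum 1 held few muscle transcripts: all 6 smooth muscle markers (Acta2, Myh11, Des, Tagln, Cnn1 and Actg2) were lower in both than in the other 4 ileal libraries, with a summed 20.2 to 34.2 CPM against 1814 to 2643 CPM, and none of them was at 0. Of 8 stromal and endothelial markers, 5 were lower and 1 higher in both of these libraries, with a sum of 47.3 to 51.9 CPM against 307 to 591 CPM. Lower too were 3 of 4 plasma cell markers (sum 547 to 549 against 839 to 1335 CPM) and 3 of 5 macrophage markers (66.0 to 70.2 against 122 to 150 CPM). Of 7 T and B cell markers, 3 were lower and 3 higher, with sums of 45.9 to 55.4 against 42.5 to 56.3 CPM. KO ileum 2 held the highest ileal levels of 3 of 6 colonic markers (Car1, Aqp8 and Slc26a3), with a summed 4585 CPM for the list against 1803 to 1999 CPM in the other 5. Car4, Muc2 and Hoxb13 were not highest there, and without Car1 the sum of 1953 CPM lay within the range of the other ileal libraries (1753 to 1986 CPM). Car1 was at 2632 CPM in that library, between 3.40 and 144 CPM in the remaining 5 of ileum, and at 14884 to 27124 CPM in colon.

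Of the 81 members, 34 passed the filter on low counts and were tested, 25 had counts but were below the filter, and 22 had no count in any library, where 3 counts would correspond to 0.117 to 0.200 CPM. The share tested was 42% of the members, beside 30.8% of all genes in the table. Only 20 members reached a mean of 10 CPM in any of the 4 groups. The heat map of levels by library shows how a few genes stand above the rest, and how the order of the leading genes changes between ileum and colon.

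**Figure D1:**
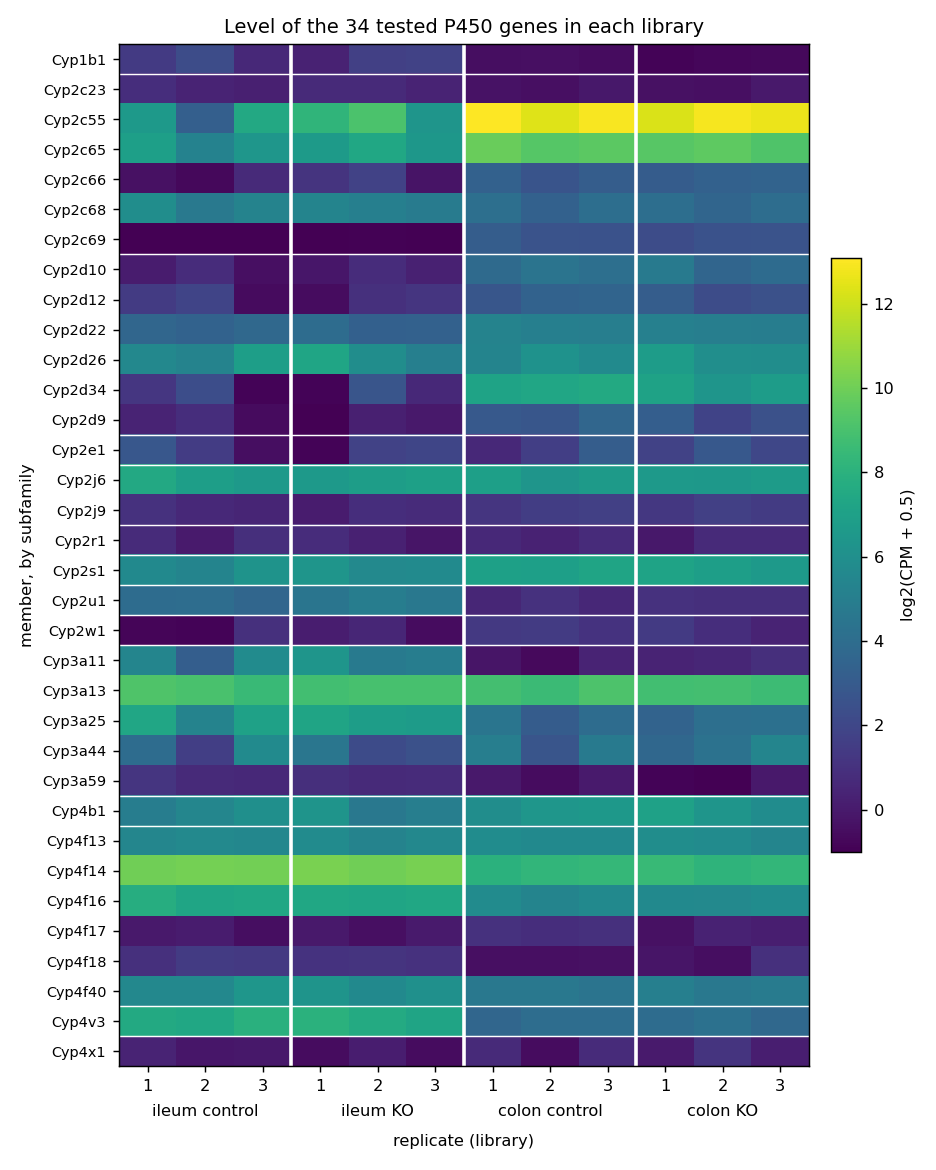
Level of the 34 tested members in each of the 12 libraries, as log2(CPM + 0.5), with rows grouped by subfamily and columns by tissue and genotype. Cyp2c55 is the brightest row in all 6 colonic libraries, and Cyp4f14 in all 6 ileal libraries.

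In colon the members together reached 9606 ± 1947 CPM in control and 8560 ± 1265 CPM in KO mice, against 2800 ± 276 and 3100 ± 331 CPM in ileum (mean ± SD, n = 3 each). The 6 colonic libraries, at 7280 to 11074 CPM, lay above the 6 ileal ones, at 2483 to 3376 CPM, without overlap. Levels of different genes were compared per kilobase of exon. By that measure Cyp2c55 alone supplied 78.6 ± 2.83% of the summed P450 level in control colon and 77.3 ± 5.0% in KO colon. Cyp4f14 led in ileum, with 42.6 ± 6.62% in control and 39.5 ± 6.54% in KO mice, followed by Cyp3a13 with 16.0 ± 4.38% and 13.8 ± 2.62%.

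**Figure D2:**
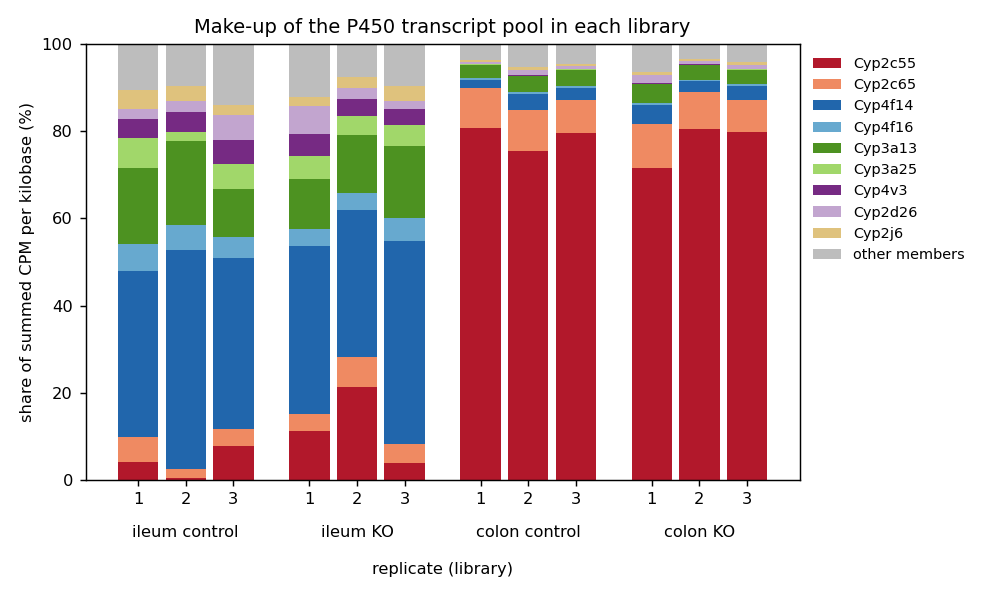
Share (%) of the summed CPM per kilobase of all 81 members taken by 9 named members and by the others together, with 1 bar per library. In colon Cyp2c55 fills 71.5 to 80.7% of each bar, and in ileum it fills 0.50 to 21.4%, most of all in KO ileum replicate 2.

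Between colon and ileum, 23 of the 34 tested members differed in control mice (12 higher and 11 lower in colon) and 22 in KO mice (11 higher and 11 lower), by edgeR's quasi-likelihood test with a Benjamini-Hochberg adjusted p under 0.1. Over all 16558 genes tested, the same rule called 35.9% in control mice (16.2% higher and 19.6% lower in colon) and 37.1% in KO mice (17.1% higher and 20% lower). By library values, 26 members had no overlap between the tissues in control mice (all genes 40.7%) and 23 in KO mice (50.4%). The median size of the log2 fold change was 1.78 in control and 1.52 in KO mice for the members, beside 0.50 and 0.51 for all genes tested. The calls of both genotypes shared 21 members, which is 91.3% of the control list and 95.5% of the KO list, and the direction was the same for all 21. Counts were also scaled to the summed epithelial markers instead, a choice that moved the median log2 fold change of all genes to 0.96 in control and 1.09 in KO mice. Of the 34 members, the calls were then 26 (18 higher and 8 lower) and 29 (21 higher and 8 lower). The share of all genes called under this scaling is not given, so these counts cannot be set beside the shares above. No member called under TMM scaling changed direction under any alternative.

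**Figure D3:**
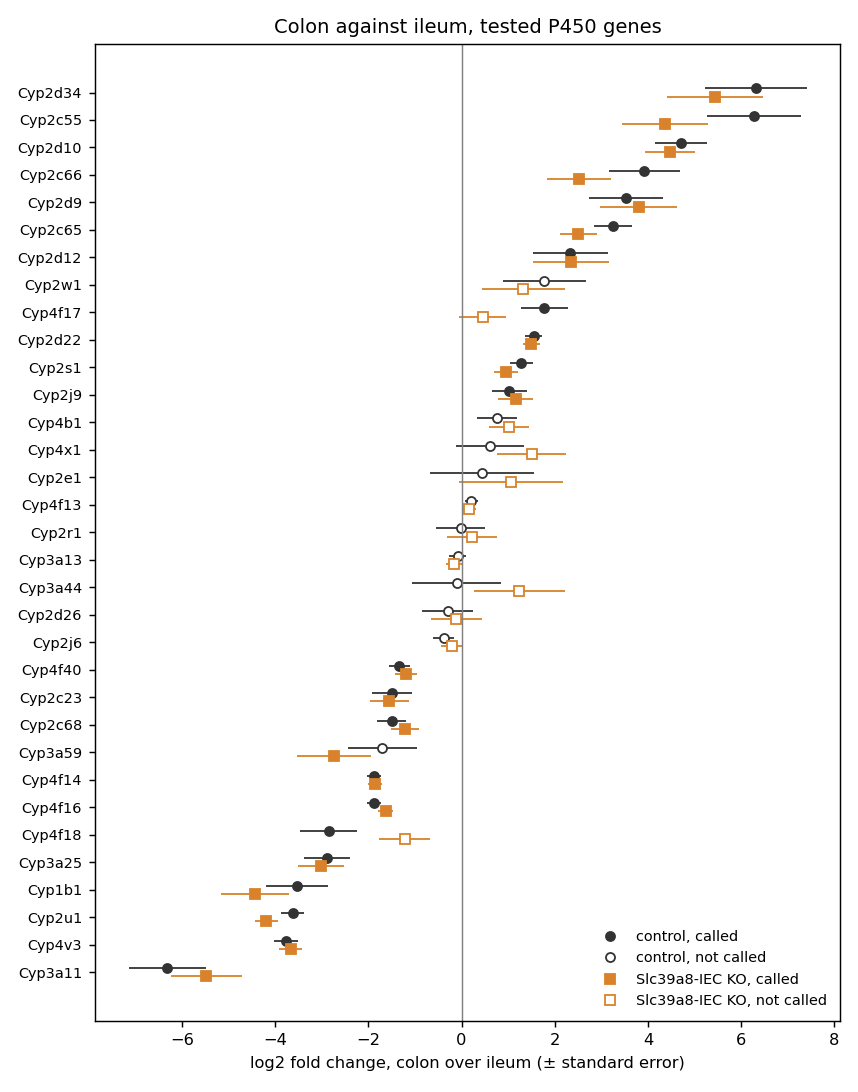
Log2 fold change of colon over ileum (± standard error) for 33 of the 34 tested members in control (black circles) and KO (orange squares) mice, filled where the adjusted p was under 0.1. Cyp2c69 is not drawn because it had no count in control ileum. The members run from Cyp3a11 (−6.31 in control) to Cyp2d34 (6.31 in control).

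The subfamily with the largest level in colon was Cyp2c, whose members oxidize arachidonic acid and other fatty acids as well as drugs. Of 15 Cyp2c members, 14 lie in a cluster at chr19:39007019-40187333 (mm10), and Cyp2c23 lies apart at chr19:44005022-44029208. Within the cluster Cyp2c55, Cyp2c65 and Cyp2c66 are direct neighbours on the plus strand and all 3 were higher in colon, Cyp2c68 was lower there, and Cyp2c69 was detected almost only there. The remaining 9 members of the cluster were not tested: Cyp2c29, Cyp2c40, Cyp2c67 and Cyp2c70 had at most 12 counts in any library, and Cyp2c37, Cyp2c38, Cyp2c39, Cyp2c50 and Cyp2c54 had none.

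Cyp2c55, which makes hydroxylated and epoxygenated products of arachidonic acid, is at chr19:39007019-39042693. It was at 93.4, 9.22 and 177 CPM in control ileum, at 298, 545 and 80.3 CPM in KO ileum, at 8604, 5284 and 7850.4 CPM in control colon, and at 4895, 7583 and 6559 CPM in KO colon. Every colonic library was far above every ileal one, and within ileum the libraries of both genotypes overlapped. The log2 fold change of colon over ileum was 6.28 ± 1.01 (SE; edgeR adjusted p = 0.000742) in control mice and 4.37 ± 0.92 (adjusted p = 0.00434) in KO mice. Without KO ileum 2, the library high in Car1, the KO value became 5.07, and without control ileum 3 the control value became 7.12. No 75-base window of its transcripts occurs in another gene.

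Cyp2c65, the next gene of the cluster, was at 122, 37.1 and 84.0 CPM in control ileum, at 100, 169 and 87.0 CPM in KO ileum, at 940, 649 and 725 CPM in control colon, and at 671, 773 and 584 CPM in KO colon. The tissues did not overlap, and the log2 fold changes were 3.25 ± 0.40 in control and 2.51 ± 0.39 in KO mice (edgeR adjusted p = 0.000121 and 0.000612). Its neighbour Cyp2c66 ran much lower, at 0.111 to 1.1 CPM in control ileum, 0.332 to 2.89 CPM in KO ileum, 5.80 to 9.98 CPM in control colon and 8.01 to 10.7 CPM in KO colon, again with no overlap of the tissues. Its log2 fold changes were 3.92 ± 0.76 and 2.53 ± 0.69 (edgeR adjusted p = 0.00264 and 0.0174), the first becoming 5.39 without control ileum 3 and the second 3.27 without KO ileum 2. Cyp2c65 and Cyp2c66 share about 11% of their 75-base windows (11.4% and 10.8%).

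Cyp2c69 had no count in the 3 control ileal libraries and 1 count in KO ileum 2, against 8.5, 5.47 and 5.27 CPM in control colon and 4.24, 5.39 and 5.56 CPM in KO colon. With 3 counts per library taken as the floor, the level in control colon was at least 39.0-fold higher than in control ileum. In KO mice the ratio of summed counts was 322 with a 95% counting interval of 57.4 to 12762, which covers counting error only. Cyp2c68 had the opposite order, with 58.9, 24.9 and 38.8 CPM in control ileum, 40.8, 33.0 and 28.2 CPM in KO ileum, 17.3, 10.03 and 16.1 CPM in control colon, and 16.5, 11.6 and 15.9 CPM in KO colon. All ileal libraries were above all colonic ones, with log2 fold changes of −1.5 ± 0.31 and −1.21 ± 0.30 (edgeR adjusted p = 0.00373 and 0.0119). Cyp2c68 lost its call with epithelial scaling (log2 fold change −0.57 in control and −0.15 in KO mice). Sequence shared with other genes covers 28.5% of the windows of Cyp2c68 and 42.6% of those of Cyp2c69, mostly with Cyp2c40 (23.2% and 36.2%), so that reads could have been divided among these paralogs, whereas only 8.72% of the windows of Cyp2c69 occur in Cyp2c68.

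The promoters of this cluster are shown because genes with opposite tissue patterns carry almost the same upstream sequence. Sequences were taken from RefSeq (GRCm38.p6, the patch series of mm10), which had a window for 66 of the 81 members, and the 250 bases upstream of the RefSeq start are printed 5′ to 3′ on the gene's strand, shortened to 220 for Cyp2c69, where GENCODE M21 places exon sequence further upstream. Capitals mark CAAAGTCCA, a binding sequence of the hepatocyte nuclear factor 4 receptors Hnf4a and Hnf4g, which was searched on both strands.
Cyp2c55, chr19:39006769-39007018, plus strand: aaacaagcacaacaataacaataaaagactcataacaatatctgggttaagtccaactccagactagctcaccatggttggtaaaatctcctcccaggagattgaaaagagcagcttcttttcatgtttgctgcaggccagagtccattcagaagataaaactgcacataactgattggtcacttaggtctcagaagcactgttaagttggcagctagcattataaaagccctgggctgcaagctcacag
Cyp2c65, chr19:39060756-39061005, plus strand: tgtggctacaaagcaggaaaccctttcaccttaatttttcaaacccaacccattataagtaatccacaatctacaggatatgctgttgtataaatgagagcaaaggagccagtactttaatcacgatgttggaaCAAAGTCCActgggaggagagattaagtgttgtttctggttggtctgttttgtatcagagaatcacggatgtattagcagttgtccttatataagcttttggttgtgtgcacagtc
Cyp2c68, chr19:39741102-39741351, minus strand: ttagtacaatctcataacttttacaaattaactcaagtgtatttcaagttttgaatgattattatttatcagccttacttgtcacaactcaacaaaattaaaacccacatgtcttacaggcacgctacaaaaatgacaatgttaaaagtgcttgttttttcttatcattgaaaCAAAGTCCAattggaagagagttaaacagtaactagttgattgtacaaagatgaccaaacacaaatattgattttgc
Cyp2c69, chr19:39886800-39887019, minus strand: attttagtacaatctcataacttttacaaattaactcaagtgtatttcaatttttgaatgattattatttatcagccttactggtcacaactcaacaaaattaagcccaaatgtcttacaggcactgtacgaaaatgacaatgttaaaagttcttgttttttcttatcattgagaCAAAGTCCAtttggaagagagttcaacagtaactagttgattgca

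Cyp2c68 and Cyp2c69, the first higher in ileum and the second seen almost only in colon, were identical at 232 of 246 aligned bases (94.3%) of their 250-base windows. The capitalised sequence begins 116 bases before the RefSeq start in Cyp2c65, 77 before it in Cyp2c68 and 75 before it in Cyp2c69. For Cyp2c69 the 30 bases next to that start are not printed. It has no match in the Cyp2c55 window. Over all 32851 RefSeq promoter windows of this length, 0.384% hold it. By gene it is found in 0.451% of all genes with a window and in 10 of 66 members (15.2%). The members are Cyp2c40, Cyp2c65, Cyp2c67, Cyp2c68, Cyp2c69, Cyp2c70, Cyp3a11, Cyp3a16, Cyp3a41a and Cyp3a41b. Close paralogs such as Cyp2c68 and Cyp2c69 are counted separately in this share. Of the members called in both genotypes and holding a window, 2 of 8 higher in colon (Cyp2c65 and Cyp2c69) and 2 of 8 lower in colon (Cyp2c68 and Cyp3a11) had the match, so it was found in both directions. CAAAGTCCA was not the only sequence searched in these windows. The xenobiotic response core GCGTG was in 13 of 66 members (19.7%) and in 30.9% of all genes with a window. It was in 1 of the 8 higher and 5 of the 8 lower in colon. The HNF1 sequence GTTAAT was in 10 of 66 members (15.2%) and in 7.49% of all genes. It was in 1 of the 8 higher and 3 of the 8 lower. The Hnf4 receptors had higher TMM-scaled levels in control ileum: Hnf4g was at 224 CPM there and 31.7 CPM in control colon (group means), and Hnf4a at 1092 and 647 CPM. The summed epithelial markers were also higher in ileum, at 19396 to 24147 against 9868 to 11103 CPM. Epithelial scaling is not given for these receptors.

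Cyp2c23, a distant relative that makes epoxides of arachidonic acid, was at 0.680 to 1.26 CPM in the 6 ileal and at 0.240 to 0.457 CPM in the 6 colonic libraries. These ranges did not overlap, and the log2 fold changes of −1.48 ± 0.43 in control and −1.55 ± 0.42 in KO mice passed the test (edgeR adjusted p = 0.0230 and 0.0175). The call was lost in both genotypes with epithelial scaling (log2 fold change −0.56 and −0.49). Without the 3 ileal libraries that stand apart, the KO value was −1.25, with KO ileum 3 the only KO ileal library left.

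Cyp2d genes, a drug-metabolizing subfamily on chromosome 15, mostly followed the colonic pattern. Of 8 members, 6 were tested and 5 of these were higher in colon in both genotypes, with Cyp2d26 the exception. Cyp2d34 changed most. It was at 1.80, 4.55 and 0.0425 CPM in control ileum, at 0.0596, 6.10 and 1.04 CPM in KO ileum, at 144, 163 and 187 CPM in control colon, and at 140, 80.9 and 109 CPM in KO colon. The lowest ileal values were those of the 2 libraries with few muscle transcripts, at 1 count each, and the highest that of KO ileum 2, the library high in Car1. Its log2 fold changes were 6.31 ± 1.09 in control and 5.44 ± 1.04 in KO mice (edgeR adjusted p = 0.00124 and 0.00236). Leaving out KO ileum 2 gave 7.53 in KO mice, and leaving out control ileum 2 or 3 gave 7.68 or 5.66 in control mice.

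Cyp2d10 rose from 0.255 to 1.22 CPM in the ileal libraries to 11.8 to 27.2 CPM in the colonic ones, with log2 fold changes of 4.71 ± 0.55 and 4.46 ± 0.54 (edgeR adjusted p = 8.06e-05 and 9.73e-05, control first). It shares 22.3% of its windows with other genes, chiefly Cyp2d11, which had at most 3 counts in any library. Cyp2d9 was at 0 to 1.28 CPM in ileum and 3.06 to 12.1 CPM in colon, and its log2 fold changes were 3.53 ± 0.80 and 3.80 ± 0.82 (edgeR adjusted p = 0.00662 and 0.00515). Cyp2d12 was at 0.170 to 3.22 CPM in ileum and 4.25 to 11.3 CPM in colon, and its calls (log2 fold change 2.34 ± 0.81 and 2.35 ± 0.82, edgeR adjusted p = 0.0498 and 0.0503) were lost without control colon 2 or 3, KO ileum 1 or KO colon 1 (adjusted p up to 0.144). For all 3 the ileal and colonic libraries stayed apart. Without the library with the highest level of its group, control ileum 2, the control values of Cyp2d9, Cyp2d10 and Cyp2d12 became 4.21, 5.51 and 3.04, and without KO ileum 2 the KO value of Cyp2d9 became 4.45.

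Cyp2d22 was the steadiest of the subfamily, with 12.05, 10.3 and 12.9 CPM in control ileum, 15.02, 9.57 and 9.996 CPM in KO ileum, 39.4, 32.7 and 31.4 CPM in control colon, and 34.5, 31.8 and 31.2 CPM in KO colon. Colon was higher without overlap, by 1.55 ± 0.18 and 1.5 ± 0.18 on the log2 scale (edgeR adjusted p = 8.58e-05 and 0.000111). Cyp2d26 was abundant in both tissues and did not pass the test (log2 fold change −0.30 ± 0.55 and −0.11 ± 0.54). Its ileal values of 46.9, 38.8 and 117 CPM in control and 153, 58.5 and 33.3 CPM in KO mice were highest in the 2 libraries with few muscle transcripts, and in colon it was at 39.5 to 72.9 CPM in control and 58.2 to 108 CPM in KO mice. Of the 2 untested members, Cyp2d40 had at most 23 counts in any library, nearly all of them in ileum.

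Smaller differences toward colon were found for Cyp2s1, a P450 of epithelia outside the liver that can oxidize retinoids and eicosanoids, and for Cyp2j9. Cyp2s1 was at 49.8, 40.3 and 73.7 CPM in control ileum, at 81.1, 49.7 and 52.8 CPM in KO ileum, at 128, 125 and 147 CPM in control colon, and at 144, 117 and 93.2 CPM in KO colon. The tissues did not overlap, and the log2 fold changes were 1.29 ± 0.25 and 0.95 ± 0.25 (edgeR adjusted p = 0.00282 and 0.0150). Cyp2j9 was at 0.537 to 1.53 CPM in ileum and 1.79 to 2.64 CPM in colon. Its call in control mice (log2 fold change 1.02 ± 0.38, edgeR adjusted p = 0.0640) was lost under 7 of 25 alternatives. Among them were leaving out control ileum 2 or 3 or control colon 2 or 3. In KO mice the call (1.16 ± 0.38, edgeR adjusted p = 0.0382) was lost when KO ileum 1 or KO colon 2 was left out.

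In the other direction, the Cyp4f genes, whose best known substrates are leukotriene B4 and long-chain fatty acids, made up the largest share of the ileal level. Cyp4f14, a leukotriene B4 hydroxylase, was at 1050.3, 1124 and 1089 CPM in control ileum, at 1232, 1040.2 and 1168 CPM in KO ileum, at 248, 305 and 335 CPM in control colon, and at 354, 283 and 315 CPM in KO colon. These values were tight, with no overlap between tissues and full overlap between genotypes. Colon was lower by log2 fold changes of −1.88 ± 0.15 and −1.85 ± 0.15 (edgeR adjusted p = 5.72e-06 and 6.33e-06). Over the alternatives the weakest values were −0.93 in control and −0.78 in KO mice. Cyp4f16 had the same change at a lower level, with 217, 157 and 164 CPM in control ileum, 164, 153 and 168 CPM in KO ileum, 55.0, 40.7 and 50.5 CPM in control colon, and 49.8, 49.3 and 57.5 CPM in KO colon. Its log2 fold changes were −1.88 ± 0.16 and −1.63 ± 0.16 (edgeR adjusted p = 6.45e-06 and 1.81e-05), and the weakest over the alternatives were −0.94 and −0.55.

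Cyp4f40 was at 47.7, 46.2 and 82.4 CPM in control ileum, at 78.2, 50.8 and 65.7 CPM in KO ileum, at 24.7, 24.3 and 21.2 CPM in control colon, and at 32.7, 24.5 and 28.3 CPM in KO colon. The libraries of the tissues stayed apart, by −1.33 ± 0.23 and −1.19 ± 0.23 on the log2 scale (edgeR adjusted p = 0.00139 and 0.00279), and the call was lost with epithelial scaling (log2 fold change −0.39 and −0.12). Cyp4f13 differed little across tissues, with 43.1, 48.2 and 45.8 CPM in control ileum, 54.2, 38.3 and 46.4 CPM in KO ileum, 56.1, 51.5 and 51.5 CPM in control colon, and 58.7, 54.8 and 42.6 CPM in KO colon. Its log2 fold changes of 0.21 ± 0.15 and 0.17 ± 0.15 did not pass the test, although the control libraries of the tissues did not overlap, and with epithelial scaling it was called higher in colon (1.17 and 1.24). Cyp4f17 and Cyp4f18, both near 1 CPM, were called in control mice only (log2 fold change 1.78 ± 0.50 and −2.85 ± 0.60, edgeR adjusted p = 0.0205 and 0.00443), while their KO values were 0.46 ± 0.51 and −1.22 ± 0.55. The difference between genotypes was not called for either gene (log2 difference −1.32 ± 0.71 and 1.63 ± 0.80, edgeR adjusted p = 1 for each). The remaining Cyp4f members, Cyp4f15, Cyp4f37 and Cyp4f39, were below the filter with at most 9 counts in any library.

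Cyp4v3, a fatty acid hydroxylase whose human counterpart is mutated in a crystalline retinal dystrophy, showed 190, 163 and 244 CPM in control ileum, 253, 196 and 146 CPM in KO ileum, 11.98, 15.98 and 15.96 CPM in control colon, and 15.1, 18.9 and 12.9 CPM in KO colon. Its lowest ileal library was above its highest colonic one by several-fold, and the log2 fold changes were −3.77 ± 0.25 and −3.67 ± 0.25 (edgeR adjusted p = 1.14e-06 and 1.36e-06). Cyp2u1, a conserved hydroxylase of arachidonic acid and other long-chain fatty acids, was at 0.922 to 1.54 CPM in the 6 colonic libraries and had log2 fold changes of −3.62 ± 0.24 and −4.19 ± 0.24 (edgeR adjusted p = 1.14e-06 and 5.11e-07); its ileal values are given with the genotypes. Cyp1b1, an Ahr-responsive oxidase of steroids and polycyclic compounds, was at 0.775 to 4.39 CPM in ileum and at 1 to 5 counts per library in colon. The ileal libraries with few muscle transcripts, at 1.02 and 0.775 CPM, were below the other 4, and the call held in both genotypes (edgeR adjusted p = 0.00223 and 0.000922).

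The Cyp3a genes, which oxidize drugs, bile acids and steroids, divided in their tissue pattern. Cyp3a11, a standard target of the pregnane X receptor in liver, was at 42.5, 8.83 and 54.2 CPM in control ileum, at 81.3, 25.8 and 31.0 CPM in KO ileum, at 0.358, 0.144 and 0.800 CPM in control colon, and at 0.801, 0.932 and 1.33 CPM in KO colon. Ileum was higher in every library, with the highest ileal values again in the 2 libraries with few muscle transcripts. The log2 fold changes were −6.31 ± 0.82 and −5.48 ± 0.76 (edgeR adjusted p = 0.000175 and 0.000268), becoming −7.14 in control mice without control colon 3 and −4.78 in KO mice without KO ileum 1. Of 5 hepatocyte markers, 2 were higher in both of those libraries than in the other 4, beside 23.2% of all genes tested. The list summed to 5.54 to 7.95 CPM there against 1.78 to 4.19 CPM in the other 4, nearly all from Ttr and Serpina1c. Alb was at no more than 0.179 CPM in any library. The part of hepatocyte transcripts in the level of Cyp3a11 was not tested.

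Cyp3a25 was at 161, 38.6 and 134 CPM in control ileum, at 147, 114 and 104 CPM in KO ileum, at 21.9, 8.01 and 15.2 CPM in control colon, and at 10.7, 16.9 and 17.5 CPM in KO colon. Colon was lower without overlap, by −2.89 ± 0.49 and −3.01 ± 0.50 on the log2 scale (edgeR adjusted p = 0.00116 and 0.000903). It shares 12.3% of its windows with Cyp3a59, a gene at 1.02 to 1.73 CPM in ileum and 0 to 0.518 CPM in colon that was called in KO mice only (log2 fold change −2.74 ± 0.80, edgeR adjusted p = 0.0248), against −1.70 ± 0.75 in control mice (adjusted p = 0.114). Without KO colon 3, which held 11 of the 12 KO colonic counts of Cyp3a59, the KO value became −5.31.

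Cyp3a13, the Cyp3a gene with the highest level here, lies on chromosome 5 apart from the other members of its subfamily and differed little between tissues. It was at 583, 532 and 373 CPM in control ileum, at 445, 507 and 508 CPM in KO ileum, at 470, 385 and 554 CPM in control colon, and at 444, 461 and 405 CPM in KO colon. All 4 groups overlapped, and the log2 fold changes of −0.08 ± 0.18 and −0.16 ± 0.18 did not pass the test, whereas epithelial scaling called it higher in colon (0.87 and 0.93). Cyp3a44 ranged from 2.5 to 52.5 CPM in ileum and from 6.09 to 42.6 CPM in colon, a spread larger than any difference between its groups, and was not called. Cyp3a16, Cyp3a41b and Cyp3a57 had no count, and Cyp3a41a had at most 2.

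**Figure D4:**
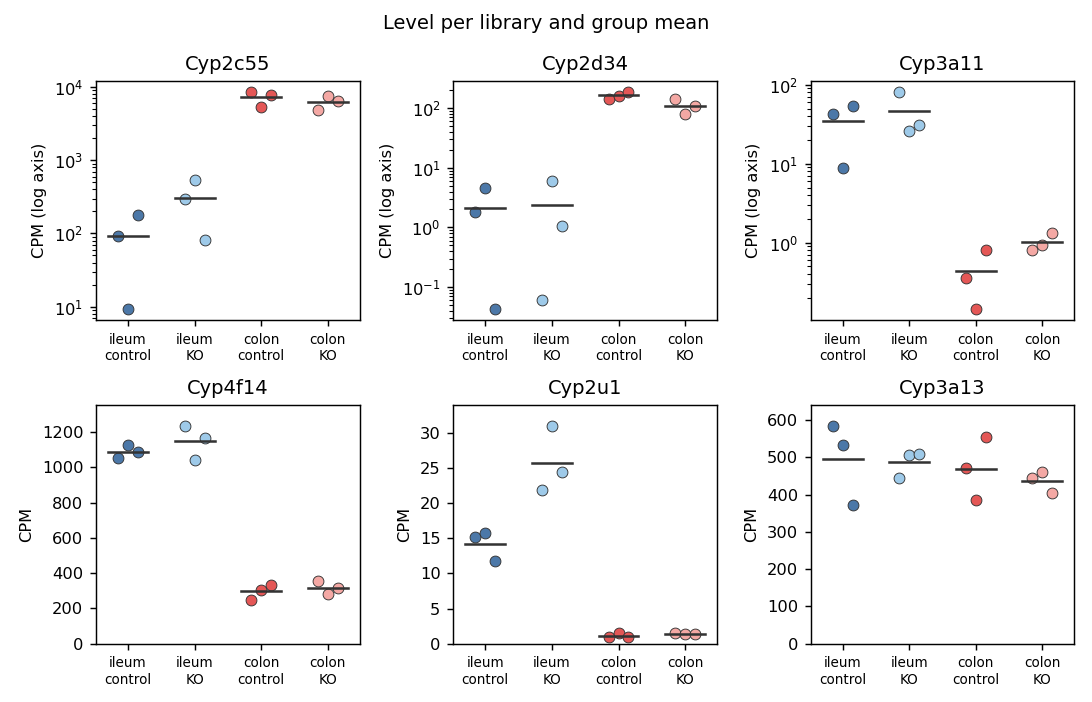
CPM of 6 members in each library (points) with the mean of the 3 libraries of a group (line), on log axes for Cyp2c55, Cyp2d34 and Cyp3a11 and on linear axes from 0 for Cyp4f14, Cyp2u1 and Cyp3a13. Colonic points of Cyp2c55 and Cyp2d34 lie above, and those of Cyp3a11, Cyp4f14 and Cyp2u1 below, all ileal points. For Cyp2u1 the KO ileal points, at 21.9 to 30.9 CPM, lie above the control ileal points, at 11.8 to 15.8 CPM.

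Besides Cyp2d26, Cyp3a13, Cyp3a44 and Cyp4f13, 6 tested members were called in neither genotype between the tissues. Cyp2j6, an epoxygenase of arachidonic acid, was at 183, 118 and 94.6 CPM in control ileum, at 92.1, 116 and 127 CPM in KO ileum, at 121, 80.0 and 102 CPM in control colon, and at 93.8, 90.8 and 104 CPM in KO colon, with all groups overlapping. It was called higher in colon with epithelial scaling (log2 fold change 0.56 and 0.88). Without the 3 ileal libraries that stand apart, its log2 fold change in control mice was −0.56. Cyp4b1, which bioactivates pulmonary toxins and hydroxylates fatty acids, was at 30.8, 43.2 and 63.7 CPM in control ileum, at 77.4, 24.8 and 31.4 CPM in KO ileum, at 60.2, 82.1 and 90.6 CPM in control colon, and at 130, 81.1 and 58.0 CPM in KO colon. Its log2 fold changes were 0.76 ± 0.43 and 1.01 ± 0.43 (edgeR adjusted p = 0.216 and 0.101). Without the 3 ileal libraries that stand apart, an alternative added after seeing the data, they were 1.08 and 1.52. That fit left KO ileum 3 as the only KO ileal library. Control ileum 3 and KO ileum 1 were the highest ileal libraries of Cyp4b1.

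The other 4 ran at low levels. Cyp2e1, the ethanol-oxidizing P450, was at 0.0596 to 6.52 CPM in ileum, lowest in the 2 libraries with few muscle transcripts, and at 1.02 to 8.47 CPM in colon. Cyp2w1, known from colorectal tumours, was at 0.0555 to 1.44 CPM in ileum and 0.830 to 2.21 CPM in colon. Cyp2r1, a vitamin D 25-hydroxylase, was at 0.379 to 1.36 CPM in ileum and at 0.424 to 1.18 CPM in colon, and Cyp4x1 at 0.179 to 0.799 and 0.192 to 1.71 CPM.

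Among members below the filter, Cyp2b10, the classic target of the constitutive androstane receptor, had the highest count. It was at 0.0666, 0.278 and 3.44 CPM in control ileum, at 5.37, 0.430 and 0.142 CPM in KO ileum, and at 0 to 0.311 CPM in colon, so that most of its counts stood in the 2 ileal libraries with few muscle transcripts. Cyp1a1, the most sensitive target of Ahr, was at 1.1 CPM in control ileum 3 and at or below 0.119 CPM in the other 11 libraries. Cyp2f2 reached 0.819 CPM (control colon 1) and Cyp2a5, Cyp2ab1, Cyp2t4 and Cyp4a10 had at most 4 counts in any library, although each leads its subfamily. The Cyp4a genes, fatty acid hydroxylases that respond to Ppara in liver, were close to silent: 6 of 8 had no count and Cyp4a10 and Cyp4a14 had at most 2. Cyp2g1, alone in its subfamily, had none.

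Levels of members also differed between the ileal libraries. Between the 2 with few muscle transcripts and the other 4 ileal libraries, 9 of the 34 tested members were higher and 9 lower in both, beside 23.2% higher and 27.2% lower of all genes tested, so that the members separated about as often as other genes. Higher were Cyp2d22, Cyp2d26, Cyp2r1, Cyp2s1, Cyp3a11, Cyp3a44, Cyp4b1, Cyp4f40 and Cyp4v3. Lower were Cyp1b1, Cyp2d9, Cyp2d10, Cyp2d12, Cyp2d34, Cyp2e1, Cyp2j6, Cyp2j9 and Cyp3a13. The means differed by ratios from 0.0151 (Cyp2d34) to 5.60 (Cyp3a44). KO ileum 2, the library high in Car1, held the highest ileal level of 6 tested members, against 0 to 10 in each of the other ileal libraries, and of 8.33% of all genes tested. The 6 members were Cyp2c55, Cyp2c65, Cyp2c66, Cyp2c69 (at 1 count), Cyp2d34 and Cyp2u1. All but Cyp2u1 were among the 11 members higher in colon in both genotypes. The rest of those 11, Cyp2d9, Cyp2d10, Cyp2d12, Cyp2d22, Cyp2j9 and Cyp2s1, were highest in other ileal libraries. The matching share of all genes is not given, so no reading of this overlap is made. The part of muscle, stromal, plasma cell, macrophage or colonic transcripts in these differences was not tested. Without all 3 libraries, KO ileum 3 was the only KO ileal library left, so calls of that fit are not given. Its log2 fold changes are given above for Cyp2c23, Cyp2j6 and Cyp4b1.

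Loss of epithelial Slc39a8 gave no call among the members. By edgeR with an adjusted p under 0.1, 0 of 34 were called over both tissues together, 0 in ileum, 0 in colon and 0 when the colonic and ileal effects were compared with each other, and over all 16558 genes the same rule called 0% in each. At an unadjusted p under 0.05 the members numbered 1 over both tissues (Cyp2u1), 2 in ileum (Cyp2u1 and Cyp2c66), 2 in colon (Cyp4f17 and Cyp4f18) and 0 for the comparison of effects, where all genes gave 3.87%, 1.52%, 2.33% and 1.02%. DESeq2, which gave a p to 58 or 59 members, and limma-voom, with 34, also called 0 members in all 4 comparisons.

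The precision of these comparisons differed by member. Over the 20 members with at least 10 CPM in a group, the standard error of the log2 fold change over both tissues ran from 0.10 to 0.69 with a median of 0.19. The values themselves ran from −0.48 (Cyp3a44) to 0.76 (Cyp2c55). For the abundant and steady members they were close to 0 in each tissue: Cyp4f14 was at 0.08 ± 0.15 in ileum and 0.10 ± 0.15 in colon, Cyp4f13 at 0.02 ± 0.15 and −0.03 ± 0.15, and Cyp3a13 at −0.03 ± 0.18 and −0.10 ± 0.18.

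**Figure D5:**
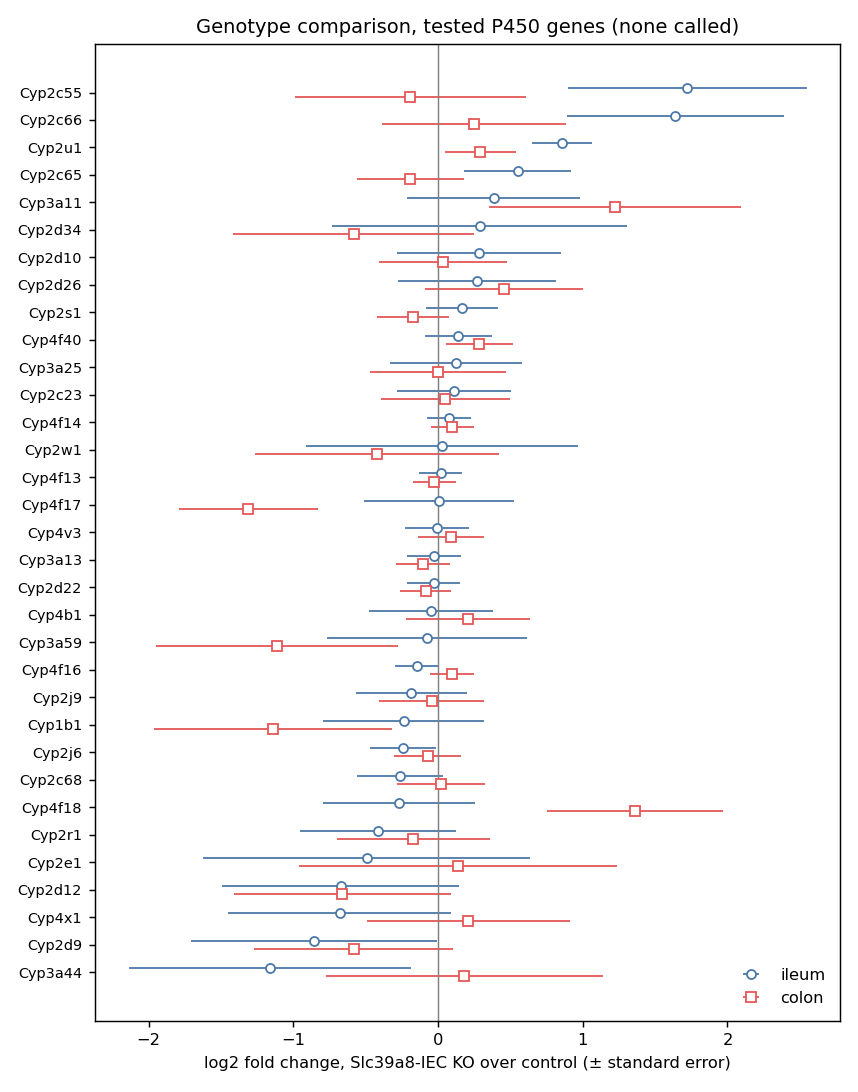
Log2 fold change of KO over control (± standard error) for 33 of the 34 tested members in ileum (blue circles) and colon (red squares), with Cyp2c69 left out for its lack of ileal counts. No member was called in either tissue, and Cyp2c55, Cyp2c66 and Cyp2u1 have the highest ileal values, at 1.72, 1.64 and 0.86.

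Cyp2u1 had the smallest genotype p of the members. It was at 15.2, 15.8 and 11.8 CPM in control ileum and at 21.9, 30.9 and 24.5 CPM in KO ileum, groups that did not overlap, and at 0.922, 1.54 and 0.989 against 1.51, 1.35 and 1.37 CPM in colon, where they did. The log2 fold change was 0.86 ± 0.21 in ileum and 0.29 ± 0.24 in colon, and 0.62 ± 0.17 over both tissues (edgeR unadjusted p = 0.00172, 0.258 and 0.00324, adjusted p = 1, 1 and 0.998). An exact two-sided permutation test over both tissues gave p = 0.02, and in ileum alone p = 0.1, the smallest that 3 against 3 libraries allow. Over the alternatives the ileal value ran from 0.66 to 0.96 with adjusted p between 0.574 and 1, and it was 0.71 without KO ileum 2, the library with its highest level. Cyp2u1 lies at chr3:131288441-131303227 on the minus strand, 4522052 bases from Slc39a8 on the same chromosome. Less than 1% of its windows occur in another gene.

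Cyp2u1 was the only member whose ileal groups did not overlap, beside 3.7% of all genes tested (2.13% higher in KO mice). In colon 4 members had groups without overlap, beside 12.8% of all genes (6.98% higher and 5.85% lower in KO mice): Cyp3a11 was higher in KO mice, and Cyp1b1, Cyp2d34 and Cyp4f17 were lower. No member kept its groups apart in both tissues in the same direction, beside 0.411% of all genes. Cyp4f17 was at 1.48, 1.30 and 1.41 CPM in control colon and at 0.283, 0.777 and 0.623 CPM in KO colon, a log2 fold change of −1.31 ± 0.48 (edgeR unadjusted p = 0.0186, adjusted p = 1). Cyp4f18, at 0.240 to 0.282 CPM in control colon, reached 1.41 CPM in KO colon 3 and 0.377 and 0.207 CPM in the others, and its log2 fold change of 1.36 ± 0.61 was 0.19 without that library.

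Cyp2c55 and Cyp2c66 had the highest ileal fold changes after Cyp2c69, at 1.72 ± 0.82 and 1.64 ± 0.75 (edgeR unadjusted p = 0.0593 and 0.0499, adjusted p = 1 for each). Both were highest in KO ileum 2, and without it the values were 1.02 and 0.90 (edgeR adjusted p = 0.997 for each). In colon Cyp2c55 differed by −0.19 ± 0.80.

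Spread between libraries of a group was wider for the members than for most genes. The median SD of log2(CPM + 0.5) was 0.477 for members and 0.341 for all genes in control ileum, 0.389 and 0.257 in KO ileum, 0.273 and 0.198 in control colon, and 0.294 and 0.166 in KO colon. Cyp2d34 spanned a 143-fold range over the 6 ileal libraries, Cyp2e1 109-fold and Cyp2c55 59.1-fold, whereas Cyp4f14 spanned 1.18-fold. In colon the same genes spanned 2.32-fold, 8.27-fold, 1.76-fold and 1.42-fold. The lowest ileal values of Cyp2d34 and Cyp2e1 were 1 count, below the floor of 3 counts, so the size of their ileal ranges is uncertain.

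Genes that serve the P450 system were followed as 4 lists, for which only TMM-scaled values are given. Their tissue counts stand beside 35.9% of all genes tested called between colon and ileum in control mice and 37.1% in KO mice. Of 15 genes for electron donors and heme supply, 9 differed between colon and ileum in control mice (5 higher, 4 lower) and 8 in KO mice (4 higher, 4 lower). Por, the reductase that feeds microsomal P450 enzymes, was higher in colon, at 183 against 84.6 CPM in control mice (log2 fold change 1.116, edgeR adjusted p = 0.00186), as was Alas1, the first enzyme of heme synthesis, at 173 against 74.8 CPM. Hmox1, which degrades heme, was at 1.38 CPM in control ileum and 27.6 CPM in control colon, a mean that was 11.2 CPM without control colon 2 (log2 fold change 4.33, and 3.03 without that library). Cyb5b, a cytochrome b5, was lower in colon at 280 against 444 CPM. None of the 15 reached an unadjusted p under 0.05 between genotypes in any of the 4 comparisons.

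Among 17 regulators, 4 were higher and 5 lower in colon in each genotype. Pparg, which controls lipid metabolism, was at 13.1 CPM in control ileum and 173 CPM in control colon, and Hnf4g was the regulator with the largest change toward ileum. Nr1i3 was lower in colon too, at 2.82 against 0.775 CPM, while Ahr (10.5 and 12.9 CPM) and Nr1i2 (111 and 106 CPM) were not called. Of 13 genes for eicosanoid and epoxide metabolism, 11 were tested, with 3 higher in colon (Pla2g4a, Ephx1 and Ephx4) and 1 lower (Lta4h) in both genotypes. Of 19 genes of other P450 families, 8 were tested. Cyp51, the sterol 14-demethylase, was lower in colon at 135 against 414 CPM in control mice. The genotype comparisons called 0 genes of these 3 lists, with 0 at an unadjusted p under 0.05.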

How the data were processed

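RNA-seq was read from 12 libraries, 3 mice for each of 2 tissues and 2 genotypes. The authors deposited expected counts per Ensembl gene for all libraries in 1 table. The submitters' processing notes name STAR and the mm10 build, and the reporting summary of the study names FeatureCounts on uniquely mapped reads after removal of duplicates by UMI-tools. FeatureCounts gives whole counts in that use, whereas 93.67% of the deposited expected counts were whole (within 1e-06), so the tool that made the deposited column is uncertain. Symbols and biotypes came from GENCODE M21, which held 53620 of 53715 identifiers.

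Expected counts were rounded, filtered with filterByExpr over the 4 groups (16558 genes tested) and scaled by TMM. Genes were tested with the quasi-likelihood test of edgeR 4.0.16 (R 4.3.3), with tissue and genotype as terms over both tissues and with 1 mean per group otherwise, at a Benjamini-Hochberg adjusted p under 0.1 over all genes. Counts were 16749138 to 27903083 per library. Standard errors cover the spread between mice, and counting intervals and floors cover counting error only. Exact permutation tests used log2(CPM + 0.5). The fit was also run on simulated counts with known changes between the tissues, and the outcome is not given here. No genotype change was simulated, so the detection of one was not checked. Alternatives were DESeq2 1.42.0, limma 3.58.1 (voom), other scalings, filters and thresholds, no rounding, a replicate block, and leaving out libraries. Sequence shared between genes was counted as 75-base windows of GENCODE M21 transcripts.

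The P450 families and the gene lists were chosen with earlier results of these data known, and within the families the members followed from their symbols. Text names members with a mean of at least 10 CPM in a group, those called and among the 10 largest changes in a direction, those with an unadjusted genotype p under 0.01 and the highest of each subfamily; other members were named after their values were seen. Proteins and 15 missing promoters were not used here.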

Additional observations from a re-analysis of the deposited data

How the results depend on the processing

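The number of members called between colon and ileum was 23 in control and 22 in KO mice, and over all alternatives it ran from 22 to 27 and from 21 to 29. The number of members with an adjusted p also differed between alternatives, from 34 to 59 in control and from 33 to 59 in KO mice. Leaving out 1 library at a time gave 22 to 25 and 21 to 25. With the replicate number as a block the counts were 22 and 23, and 0 for the genotype over both tissues. The deviations of same-numbered control and KO libraries, which come from different mice, correlated at −0.55, 0.40 and −0.69 in ileum. Those of same-numbered ileal and colonic libraries correlated at −0.05, 0.16 and −0.08 in control mice. In KO mice these were 0.19, 0.05 and 0.25. Differently numbered ileal and colonic libraries of a genotype ran from −0.21 to 0.16. These values cannot decide whether same-numbered libraries came from the same mouse, and the labels do not say. Of 45 called tissue values of members, 35 kept their direction and call under all alternatives, 10 lost the call under some (Cyp2c23, Cyp2c68, Cyp2d12, Cyp2j9 and Cyp4f40, in each genotype) and 0 reversed. In 15 of the 45, leaving out 1 library moved the fold by over 1.5 times. Scaling by library size alone moved the median log2 fold change of all genes to 0.24 in control and 0.29 in KO mice. Members near 1 CPM, such as Cyp4f17, Cyp4f18 and Cyp3a59, rest on few counts, and 3 mice per group limit the genotype comparisons.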
